A study of Rattus norvegicus with 16 samples.

Results

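Gene expression was compared between CD90 cells and p75 cells sorted from cultures of the olfactory mucosa of male Fischer rats, with 4 biological replicates of each population on 1 array each. These 8 arrays, taken by their titles, are 8 of the 16 samples of the study, whose other 8 arrays hold TRKA cells and TRKA cells conditioned with transforming growth factor alpha (TRKA-TGF). Per the labels, the CD90, p75 and TRKA populations shared 1 culture protocol, all 4 populations were sorted by flow cytometry to a purity of 93 to 97%, and the mRNA was amplified by a global PCR before labelling. Thy1 encodes CD90, a glycoprotein of the cell surface, and Ngfr encodes p75, a receptor that binds all neurotrophins with low affinity. Levels below are log2 signals relative to the 75th percentile of the same array, so that 0 is that percentile. A difference is the mean of the CD90 arrays minus the mean of the p75 arrays. Where nothing more is said, values per array are given in the order of replicates 1 to 4, errors beside a mean are SD over 4 arrays, and SE is the standard error of the fitted difference.

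The olfactory mucosa is unusual in that olfactory neurons are replaced throughout life and their axons grow back into the brain. Ensheathing glia, which descend from the neural crest and resemble Schwann cells, wrap these axons along the olfactory nerve. Fibroblasts, smooth muscle cells and pericytes of the lamina propria lie around the nerve bundles and grow alongside the glia in culture, where p75 is commonly used to pick out the glia and CD90 the fibroblast-like cells.

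The 2 populations lay on different slides, each with its own scan, so that slide and population cannot be told apart in any value below. Between 68.5 and 72.4% of the spots on each of the 8 arrays were well above background. Across the 19048 genes tested, replicate arrays correlated at 0.823 to 0.841 in CD90 and 0.831 to 0.887 in p75, and arrays of different populations at 0.721 to 0.762. The median SD per gene was 0.66 in CD90 and 0.62 in p75. The limma fit, with Benjamini-Hochberg adjustment over all genes, called 1855 genes (9.74%) at an adjusted p under 0.05, with 916 (4.81%) higher and 939 (4.93%) lower in CD90. The median difference over all genes was 0.04. Each count of list members called below is to be read beside the 4.81% higher and 4.93% lower over all genes. The 4 arrays of one population did not overlap the 4 of the other for 3814 genes (20.0%). Of the 1855 calls, 1051 held when each array was left out in turn, and 1213 were also made with all 16 arrays in the fit, where the spread of the TRKA and TRKA-TGF arrays enters. Of the genes named as called below, Col3a1, Col18a1, Efnb3, Fbn1, Grem1, Igfbp5, Klf4, Lama2, Lamb1, Lox, Pdgfra, Pdgfrb, Prrx1, Ptn, Tagln, Tfap2b and Thbs2 were not called in that fit. Without CD90 replicate 1 the number of higher genes was 610, and without p75 replicate 3 the number of lower genes was 624.

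**Figure D1:**
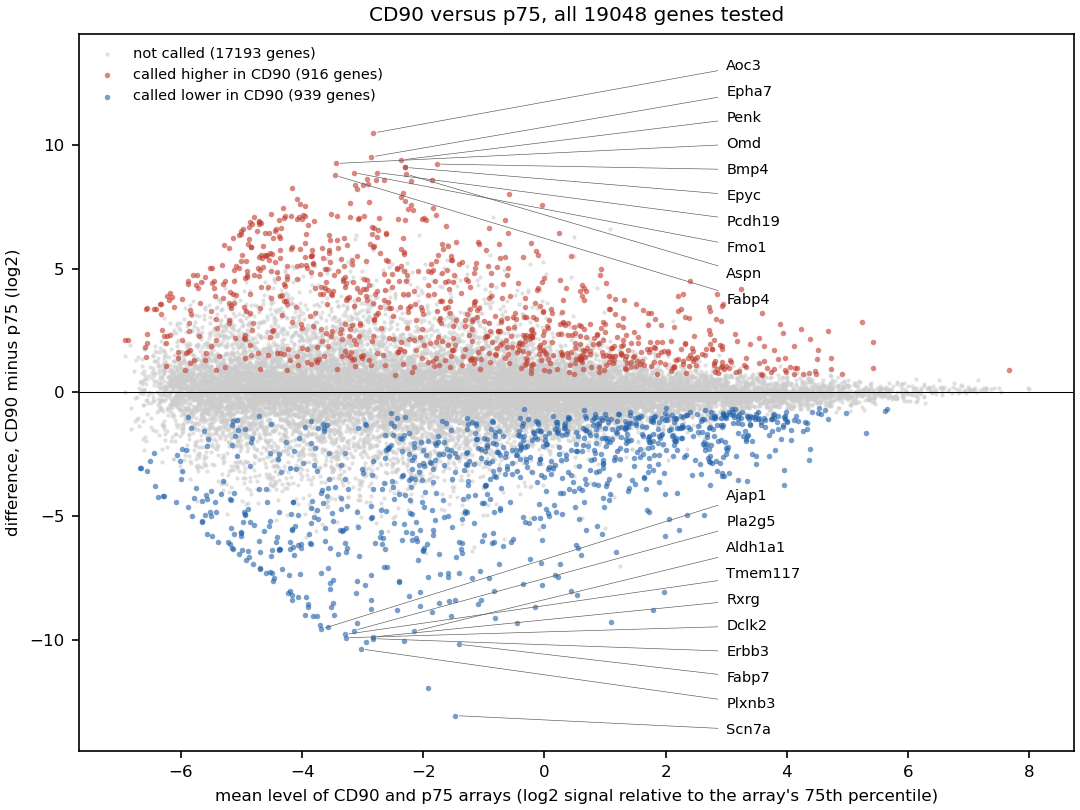
Each of the 19048 genes tested is a point at its mean level over both populations (x axis, log2, 0 at the array's 75th percentile) and its difference, CD90 minus p75 (y axis, log2). Red points are the 916 genes called higher in CD90, blue points the 939 called lower, and the labelled genes are the 10 with the largest differences in each direction that have a current symbol.

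Transcripts of both sort proteins followed the sort, which is a check of the labels and no finding. Thy1 stood at 3.12, 3.28, 3.59 and 3.76 on the CD90 arrays and at −1.80, −1.53, −1.11 and −1.80 on the p75 arrays, all 8 well above background. The groups did not overlap, and the p75 level was 3.12% of the CD90 level (difference 5.0, SE 0.25, adjusted p = 3.61e-05). Ngfr stood at 3.32, 3.32, 3.18 and 2.82 on the p75 arrays. On the CD90 arrays it stood at −8.07, −7.80, −3.76 and −1.34, and only replicates 3 and 4 were well above background. The difference of −8.40 (SE 1.48, adjusted p = 0.0131) therefore joins 2 CD90 arrays near the detection limit to 2 with measurable transcript. Where only 1 or 2 arrays of the dimmer population were well above background, this is said beside the difference, which then rests in part on signals at the detection limit. The probes lie on rn4 chromosome 8 (47031186 to 47031646) for Thy1 and chromosome 10 (84263082 to 84263141) for Ngfr. In such sorted pools, fewer cells of a type and less RNA per cell cannot be told apart.

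Among the largest differences toward CD90 were a BMP ligand, an opioid peptide precursor, an ephrin receptor and several small proteoglycans of the matrix. Bmp4, a ligand of mesenchymal patterning, stood at 2.98, 2.80, 2.68 and 2.89 on the CD90 arrays and at −6.57, −5.15, −7.37 and −6.50 on the p75 arrays, of which 1 was well above background. All CD90 arrays lay far above all p75 arrays (difference 9.23, SE 0.44, adjusted p = 3.19e-05). Epha7, a receptor of cell-bound ephrins, stood at 1.30, 2.46, 2.06 and 1.79 against −6.33, −8.13, −7.87 and −8.14. The groups were again apart (9.52, SE 0.47, adjusted p = 3.62e-05), with 1 p75 array well above background. Omd, which encodes the bone and connective tissue proteoglycan osteomodulin, stood at 1.49, 0.88, 1.10 and 1.27 on the CD90 arrays and was below that mark on all 4 p75 arrays, which puts it at least 325-fold higher in CD90 (adjusted p = 8.04e-07). A bound of this kind sets the mean of the brighter group against the lowest signal that counts as well above background on the dimmer arrays, or the probe's own signal where higher. On the same terms the amine oxidase gene Aoc3 was at least 760-fold and the flavin monooxygenase gene Fmo1 at least 350-fold higher. The other 5 of the 10 largest were Penk, Epyc, Pcdh19, Aspn and Fabp4, which are described with their families.

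The largest differences toward p75 were led by a sodium channel gene, a plexin and a neuregulin receptor. Scn7a, which encodes an atypical sodium channel found in glia and sensory neurons, stood at 5.08, 4.96, 5.06 and 5.14 on the p75 arrays and was not well above background on any CD90 array. It was at least 4880-fold lower in CD90 (adjusted p = 8.04e-07), the largest bound of the 20 genes. Plxnb3, a semaphorin receptor gene of glia, stood at 1.63, 2.04, 2.46 and 2.51 on the p75 arrays and was not well above background in CD90, at least 669-fold lower (adjusted p = 9.53e-07). The same held for the neuregulin receptor gene Erbb3 (at least 648-fold), the retinaldehyde dehydrogenase gene Aldh1a1 (at least 785-fold), the doublecortin-like kinase gene Dclk2 (at least 479-fold), the membrane protein gene Tmem117 (at least 454-fold), the phospholipase gene Pla2g5 (at least 460-fold) and the junction gene Ajap1 (at least 322-fold). Fabp7, the brain fatty acid carrier of radial and ensheathing glia, and Rxrg, a retinoid X receptor gene, were well above background on 1 CD90 array each and differed by −10.19 (SE 1.33) and −9.90 (SE 0.46).

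For 4 of these 20 genes, 2 from each direction, the 300 bases around the transcription start are shown (250 before and 50 after it, from RefSeq on GRCr8), since their transcripts stood at opposite ends of the comparison. They were chosen after their values were seen. Capitals mark matches, on either strand, to any of 9 short motifs that were searched: GGGCGG of Sp factors, TATAAA of the TATA box, TGACTCA of AP-1, CAGGTG of E-box factors, CATTCC of TEAD factors, ACAAAG and AACAAT of Sox factors, TGACGTCA of CREB and the CArG box. None of these motifs holds another.
Epha7 (chr5:47771643-47771942, plus strand): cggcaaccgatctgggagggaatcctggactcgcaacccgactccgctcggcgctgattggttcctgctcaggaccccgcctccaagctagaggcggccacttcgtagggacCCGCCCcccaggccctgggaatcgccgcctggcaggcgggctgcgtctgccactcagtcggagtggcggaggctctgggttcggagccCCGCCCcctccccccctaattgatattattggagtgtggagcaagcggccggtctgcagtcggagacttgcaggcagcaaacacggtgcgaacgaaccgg
Omd (chr17:15274821-15275120, minus strand): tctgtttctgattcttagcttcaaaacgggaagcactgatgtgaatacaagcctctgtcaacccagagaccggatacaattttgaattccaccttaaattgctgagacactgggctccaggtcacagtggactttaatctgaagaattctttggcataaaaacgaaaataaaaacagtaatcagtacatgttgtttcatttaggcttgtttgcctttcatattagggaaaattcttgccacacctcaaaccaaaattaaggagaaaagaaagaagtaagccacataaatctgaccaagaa
Scn7a (chr3:71846235-71846534, minus strand): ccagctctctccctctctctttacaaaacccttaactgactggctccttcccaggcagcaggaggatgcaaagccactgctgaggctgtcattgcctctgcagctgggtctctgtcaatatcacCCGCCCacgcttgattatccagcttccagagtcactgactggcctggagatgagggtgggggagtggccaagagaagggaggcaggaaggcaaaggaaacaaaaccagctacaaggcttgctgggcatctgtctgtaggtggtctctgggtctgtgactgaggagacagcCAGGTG
Plxnb3 (chrX:156646624-156646923, plus strand): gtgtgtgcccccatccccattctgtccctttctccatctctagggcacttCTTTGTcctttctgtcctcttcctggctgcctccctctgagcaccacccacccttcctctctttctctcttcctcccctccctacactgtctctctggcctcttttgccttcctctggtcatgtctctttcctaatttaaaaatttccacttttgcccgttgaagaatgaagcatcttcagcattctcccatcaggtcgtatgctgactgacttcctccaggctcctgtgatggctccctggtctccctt
The window of Epha7 held GGGCGG at 2 places, that of Scn7a held it at 1 place and CAGGTG at 1, that of Plxnb3 held ACAAAG at 1 place, and that of Omd held none of the 9. Over all 27457 promoters of the table GGGCGG was present in 34.9%, and among the tested genes in 57.5% of 10837. It was present in 53.4% of 566 promoters of genes called higher in CD90 and in 64.2% of 609 of genes called lower. CATTCC was present in 92 (16.3%) and 64 of these, against 11.6% of tested genes and 13.9% of all promoters, and TATAAA in 9.72% and 6.9%, against 8.28% and 14.3%. TGACTCA was present in 5.48% and 4.11% of these, against 3.42% of tested genes and 4.53% of all promoters. CAGGTG was present in 15.5% and 22%, against 18% and 18.7%, and ACAAAG in 11.8% and 15.8%, against 14% and 18.3%. AACAAT was present in 6.89% and 5.58%, against 6.42% and 11.6%, and TGACGTCA in 1.77% and 3.45%, against 2.92% and 1.91%. The CArG box, bound by serum response factor, was present in 1.94% and 1.64%, against 1.30% of tested genes, and in 0 of 5 smooth muscle genes called higher. A match is a matter of letters only, and no test was made of these shares.

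Genes with measurable transcript in both populations, taken from the same fit and calls, were also called in both directions. Of the 14150 genes well above background on all 8 arrays, 575 (4.06%) were called higher and 680 (4.81%) lower. The largest difference toward CD90 was Rspo1, a secreted enhancer of Wnt signalling, at 1.49, 2.97, 3.04 and 3.80 against −5.63, −3.58, −1.85 and −5.46. Its groups did not overlap (6.96, SE 0.93, adjusted p = 0.0036). The next were the myosin kinase gene Mylk (6.44), the cartilage matrix gene Cilp (6.06), the muscle LIM protein gene Fhl1 (6.03), the aminopeptidase gene Enpep of pericytes and kidney (6.01), the collagen receptor gene Mrc2 (5.74), the T-box gene Tbx15 (5.73), Eps8l1 (5.55), Itm2a (5.52) and the early B-cell factor gene Ebf1 (5.51), all with an adjusted p of at most 0.0154. Toward p75 the first was Ly6g6e, of the Ly6 family of surface proteins, at 3.78, 3.52, 3.76 and 3.92 in p75 against −5.71, −5.14, −4.49 and −6.18 in CD90. Other large ones were Arhgef26 (−7.53), L1cam (−7.37), Gfap (−7.31), the adhesion gene Igsf11 (−7.24), the transporter gene Slc43a3 (−6.94), Crip1 (−6.93), Egfl8 (−6.89) and Ttyh1 (−6.74), with an adjusted p of at most 0.007. Levels on all 4 CD90 arrays lay below those on all 4 p75 arrays for each of these genes.

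The p75 cells carried the transcripts of ensheathing and Schwann glia. All 18 tested genes of a 19-gene list were lower in CD90 (4.93% of all genes were), with a median difference of −6.80 beside 0.04 over all genes; Frzb was not tested, since it was well above background on fewer than 4 of the 8 arrays. Sox10, the transcription factor that specifies neural crest glia, stood at 3.97, 4.22, 4.56 and 4.10 on the p75 arrays and at −6.23, −0.68, −7.14 and −6.43 on the CD90 arrays. CD90 replicate 2 was the only CD90 array with Sox10 well above background, and the groups did not overlap (−9.33, SE 1.36, adjusted p = 0.00535). Cdh19, a cadherin gene of Schwann cell precursors, stood at 0.90, 0.83, 0.62 and 0.70 in p75, was not well above background in CD90, and was at least 254-fold lower there (adjusted p = 6.70e-07). Fabp7 was well above background on CD90 replicate 1 alone (−2.14, against 3.51 to 3.81 in p75). The glial transcripts thus reached measurable levels on different CD90 arrays for different genes. The glial filament gene Gfap, in contrast, was even across the CD90 arrays, at −5.43, −5.08, −5.18 and −4.57, against 2.19, 1.88, 2.27 and 2.63 in p75.

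The smallest difference of the glial list was that of the adhesion gene Ncam1, which stood at 2.09, 2.08, 1.84 and 1.70 in CD90 and at 3.82, 3.70, 3.55 and 3.66 in p75 (−1.75, SE 0.18, adjusted p = 0.00116). Its transcript was thus clearly present in both populations. The adhesion gene Cadm4 (−2.48) also stood above the 75th percentile on all 8 arrays. S100b, a calcium-binding protein of glia (−5.74), Lgi4, a secreted factor of Schwann cell maturation (−5.12), and the forkhead gene Foxd3 (−5.88) were well above background on all 8 arrays. Npy, a neuropeptide gene of immature ensheathing glia, was at least 303-fold lower in CD90. Summed over the 18 genes on the linear scale, the signal of the list was 10 to 16 times the array's 75th percentile on the CD90 arrays and 201 to 217 times on the p75 arrays. The CD90 sum includes Cadm4 at 2.19 ± 0.86 and Ncam1 at 1.93 ± 0.19 (log2), whose transcripts were present in both populations. In the fit over all 16 arrays 17 of the 18 were called.

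Genes of the myelin sheath were lower in CD90 as far as they were called. Of 15 tested, 6 (among them Cnp, Ugt8, Gldn, Pmp22 and Gal3st1) were lower, none was higher and 9 were not called (median −1.87), while Mbp was not tested. Cnp, a myelin phosphodiesterase gene, stood at 4.09, 4.23, 4.19 and 4.12 in p75 and at 0.59, −0.10, −2.07 and −1.22 in CD90 (−4.86, SE 0.55, adjusted p = 0.00177). Gliomedin (Gldn), which gathers sodium channels at nodes of Ranvier, differed by −8.45 (SE 0.78), with 3 CD90 arrays well above background. The Ugt8 transcript, for the enzyme that makes galactosylceramide, was at least 67.2-fold lower. Groups did not overlap for Cnp, Gldn or Ugt8, and each held its call when any 1 array was left out. Pmp22 lost its call without CD90 replicate 3 or any 1 p75 array, and Gal3st1 without CD90 replicate 1, 2 or 4 or p75 replicate 4.

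Transcription factors were called in both directions. Of 17 tested factors of the neural crest and glia, 6 were lower, 2 higher and 9 not called in CD90 (4.93% of all genes were lower and 4.81% higher). The list did not lie on the p75 side as a whole, since its median was 0.36 and 10 of the 17 differences were above 0. Sox8, a paralogue of Sox10, stood at −1.06, −1.56, −1.05 and −0.98 in p75 and was well above background on 1 CD90 array (−6.07, SE 0.76, adjusted p = 0.00265). Zeb2, which acts in Schwann cell differentiation, was high in both, at 4.95, 5.12, 5.10 and 4.98 in p75 and 2.53, 2.94, 3.65 and 3.27 in CD90 (−1.94, SE 0.27). The other lower ones were Sox10, Foxd3, Rxrg and Sox2, of which Sox2 (−3.52) had overlapping groups and lost its call without replicate 1, 2 or 3 of either population. The 2 that were higher in CD90 were Etv1 (4.12, SE 0.48) and Tfap2b, an AP-2 factor of neural crest derivatives (2.87, SE 0.23). Tfap2b stood at 4.33, 4.46, 4.42 and 4.17 in CD90 and at 1.37, 1.42, 1.10 and 1.99 in p75.

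Among 38 tested factors of mesenchyme and craniofacial development, 18 were higher, 2 lower and 18 not called, with a median of 1.13. Of all genes 4.81% were higher and 4.93% lower, and the 2 lower factors are near that share. Snai2, a repressor of epithelial genes, stood at 1.47, 1.64, 1.20 and 1.81 in CD90 and at −8.23, −3.24, −5.41 and −6.55 in p75 (7.39, SE 0.96, adjusted p = 0.00333). The homeobox gene Alx1, of facial mesenchyme, stood at 2.46, 2.51, 2.36 and 2.75 in CD90 and at −1.19, −2.90, −2.16 and −1.78 in p75 (4.53, SE 0.36, adjusted p = 0.000336). Neither gene showed overlap between the groups. Six4 (7.04, 1 p75 array well above background) and Eya1 (6.25, 2 p75 arrays), whose proteins act together in placodes, muscle and facial mesenchyme, were higher. The paired-related gene Prrx2 was at least 83.5-fold and Dlx5, of the branchial arches, at least 57.8-fold higher, neither being well above background in p75. Osr1 (6.78), Tbx18 (7.10), Barx1 (5.64) and Twist1 (5.03) were higher as well, each well above background on only 1 p75 array. Foxc1 (3.98) and Prrx1 (3.38), measured on all 8 arrays, were also higher.

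**Figure D2:**
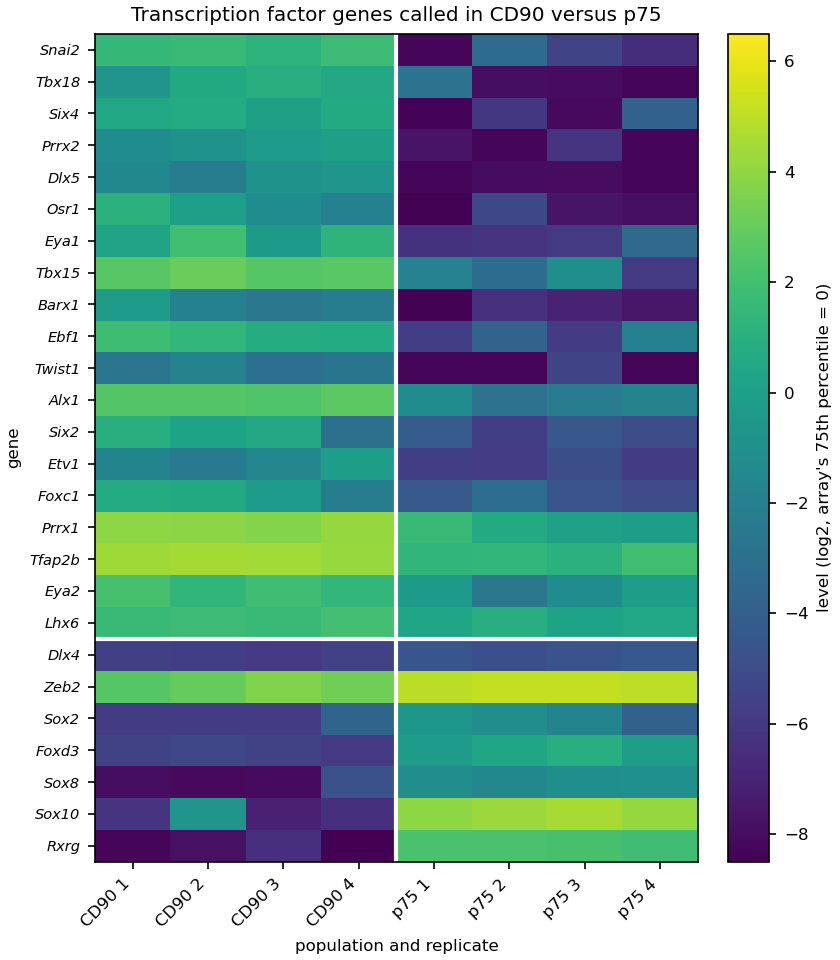
Rows are 26 transcription factor genes of both lists that were called, 19 higher and 7 lower in CD90, and columns are the 8 arrays; colour is the level (log2, 0 at the array's 75th percentile) and is to be read along a row, not between rows. Sox10 stands out on CD90 replicate 2 alone among the CD90 arrays, and Prrx2 and Dlx5 are dark on all p75 arrays.

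The CD90 cells carried more fibroblast transcripts, though p75 cells also held several of them at high levels. Of 14 tested fibroblast genes, 8 were higher in CD90 (4.81% of all genes were), none was lower and 6 were not called (median 3.04). Pdgfra, the receptor used to mark fibroblasts, stood at 3.24, 3.39, 3.44 and 3.44 in CD90 and at 0.46, 0.00, 0.43 and −0.28 in p75 (3.23, SE 0.23, adjusted p = 0.000175). Col3a1, a fibrillar collagen chain, stood at 6.69, 6.72, 6.62 and 6.65 against 4.03, 3.69, 3.69 and 3.86, which is a 7.23-fold difference between levels that were high in both populations. Fibronectin (Fn1) differed by 2.15 (SE 0.26). Mfap5, a microfibril protein, was not well above background in p75 and was at least 94.7-fold higher in CD90. Periostin (Postn) was not called, at 4.71 to 5.05 in CD90 and 4.86 to 4.98 in p75 (adjusted p = 0.920). Lum and Dcn, proteoglycans that are much used as fibroblast markers, differed by 6.27 and 5.13 and missed the threshold (adjusted p = 0.0634 and 0.0664), each with p75 replicate 4 not well above background and the other 3 p75 arrays measurable. Without that array both were called, with differences of 4.47 (adjusted p = 0.00577) and 3.63 (adjusted p = 0.00701). In the fit over all 16 arrays 5 of the 14 were called higher, and only 3 of the 8 kept their call. The summed fibroblast signal was 517 to 590 times the 75th percentile in CD90 and 218 to 228 times in p75.

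The collagen chains divided by population. Of 30 tested, 10 were higher and 8 lower in CD90 (median 0.37), and in the fit over all 16 arrays 6 and 3. The 3 chains of collagen VI, which forms beaded filaments around mesenchymal cells, were all higher. Col6a1 stood at 3.41, 3.33, 3.37 and 3.60 in CD90 and at −8.40, −2.71, −6.05 and −1.21 in p75, where 2 arrays were well above background, as they were for Col6a2 and Col6a3. The differences were 8.02, 6.98 and 7.46, all with an adjusted p of at most 0.0178. Col14a1, which binds fibril surfaces, was even within both groups, at 1.33, 1.5, 1.06 and 1.08 against −3.84, −4.18, −3.60 and −2.71 (4.83, SE 0.33, adjusted p = 0.000172). Toward p75, Col20a1 stood at 3.11, 2.95, 3.32 and 2.52 in p75 and −5.41, −6.24, −6.00 and −6.63 in CD90, with 1 CD90 array well above background (−9.04, SE 0.32, adjusted p = 5.61e-06). Col7a1, of anchoring fibrils, stood at 4.72, 5.07, 5.05 and 4.53 in p75 against 1.17, −0.11, −2.10 and 0.52 (−4.97, SE 0.67), and Col18a1, of basement membranes, differed by −3.53 (SE 0.22).

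Of 17 tested genes of laminins, other basement membrane proteins and their receptors, 7 were lower in CD90 and 1, the laminin chain Lamb1 (1.74), was higher, with a median of −0.54. Of all genes 4.93% were lower and 4.81% higher, and the single higher gene is near that share. The laminin receptor integrin alpha 6 (Itga6) stood at 3.07, 2.56, 2.52 and 1.91 in p75 and at −5.76, −6.76, −3.83 and −7.71 in CD90 (−8.53, SE 0.79, adjusted p = 0.000683), and 2 CD90 arrays were well above background. Agrin (Agrn), a heparan sulfate proteoglycan of nerve basement membranes, differed by −4.65 (SE 0.67), and Lama2, the laminin chain around Schwann cells and muscle, by −3.78 (SE 0.53). Their groups did not overlap. The count of lower genes was 2 in the fit over all 16 arrays, and 5 or 6 when 1 array was left out.

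Small leucine-rich proteoglycans, which bind collagen fibrils, had the highest median of the lists, 5.70 over 10 tested genes, with 5 higher, none lower and 5 not called. Only 3 of the 10 were well above background on all 8 arrays, and 1 of these was called higher. Omd, dim on all p75 arrays, was kept for the test through its CD90 arrays alone. The median thus rests in part on genes kept for their CD90 signal. Epyc stood at 2.07, 2.61, 2.12 and 2.19 in CD90 and at −7.47, −6.45, −8.06 and −5.42 in p75, of which only 1 array was well above background (9.10, SE 0.56, adjusted p = 9.58e-05). Aspn (8.82) and Ogn (7.71) differed in the same way, with 2 and 1 p75 arrays well above background. Among 20 tested genes of elastic fibres and collagen cross-linking, 10 were higher and 2 lower (median 1.60), and 5 and 2 in the fit over all 16 arrays. The collagen hydroxylases ran in opposite directions. Plod2, which modifies telopeptides, stood at 3.41, 3.43, 3.47 and 3.50 in CD90 and 0.81, 0.77, 0.35 and 1.38 in p75 (2.63, SE 0.24, adjusted p = 0.000678). Plod1, which acts on the helix, stood at 3.06, 3.27, 3.46 and 2.67 in CD90 and 4.54, 4.66, 4.69 and 4.55 in p75 (−1.49, SE 0.22, adjusted p = 0.00538). The fibulins were divided as well, with Fbln5 higher (5.05, SE 0.88) and Fbln2 lower (−2.24, SE 0.27) in CD90. The cross-linking enzyme gene Lox (3.47) and the fibrillin gene Fbn1 (2.75) were higher.

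Of 21 matricellular and proteoglycan genes tested, 7 were higher and 1 lower in CD90. Of all genes 4.81% were higher and 4.93% lower, and the single lower gene is near that share. The large chondroitin sulfate proteoglycans of cartilage and of brain were opposed. Acan, the aggrecan of cartilage, stood at 1.32, 1.51, 1.33 and 1.88 in CD90 and −8.31, −8.29, −4.62 and −7.02 in p75, where only 1 array was well above background (8.57, SE 0.81, adjusted p = 0.000714). Ncan, the neurocan of brain matrix, stood at 1.81, 1.21, 1.98 and 1.24 in p75 and was not well above background in CD90, at least 441-fold lower (adjusted p = 4.31e-06). The Wnt-induced matrix gene Ccn4 (8.57, 1 p75 array well above background), the hyaluronan synthase gene Has2 (4.48), Thbs2 (2.75) and osteopontin (Spp1, 2.71) were higher in CD90. The counts were 4 higher and 2 lower in the fit over all 16 arrays, and 2 genes were lower when CD90 replicate 2 or 3 was left out.

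Contractile genes of smooth muscle and markers of pericytes were higher in CD90 in 9 of 14 tested, lower in 1 and not called in 4 (median 2.12). Of all genes 4.81% were higher and 4.93% lower, and the single lower gene is near that share. Calponin (Cnn1), an actin-binding protein of smooth muscle, stood at 3.06, 3.07, 3.74 and 2.99 in CD90 and at −0.34, −1.44, −1.31 and −1.66 in p75 (4.40, SE 0.34, adjusted p = 0.000293). Mylk, the kinase that activates smooth muscle myosin, stood at 2.22, 2.37, 2.57 and 3.34 against −5.64, −2.45, −5.26 and −1.93, so that the p75 arrays fell into a lower and a higher pair (6.44, SE 0.90, adjusted p = 0.00445). A second, dimmer Mylk probe gave 4.21 and did not pass the threshold (adjusted p over probes = 0.050). Lmod1, an actin nucleator of smooth muscle, was at least 87.2-fold and the pericyte gene Rgs5 at least 54.3-fold higher, neither being well above background in p75. Tagln stood at 6.44 ± 0.10 in CD90 and 4.41 ± 0.21 in p75, and Pdgfrb, the pericyte growth factor receptor, at 3.83 ± 0.23 and 0.80 ± 0.30. Mcam ran the other way, at 1.37, 1.29, 1.32 and 1.01 in CD90 and 4.64, 4.52, 4.54 and 4.81 in p75 (−3.38, SE 0.18, adjusted p = 4.43e-05). Mcam encodes CD146, an adhesion molecule of pericytes and endothelium that Schwann lineage cells also carry. In the fit over all 16 arrays 4 of the 9 were called higher. The summed signal of the list was 130 to 143 times the 75th percentile in CD90 and 50.7 to 61.4 times in p75. The p75 sum includes Mcam, which ran the other way and stood at 4.63 ± 0.13 (log2) there.

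**Figure D3:**
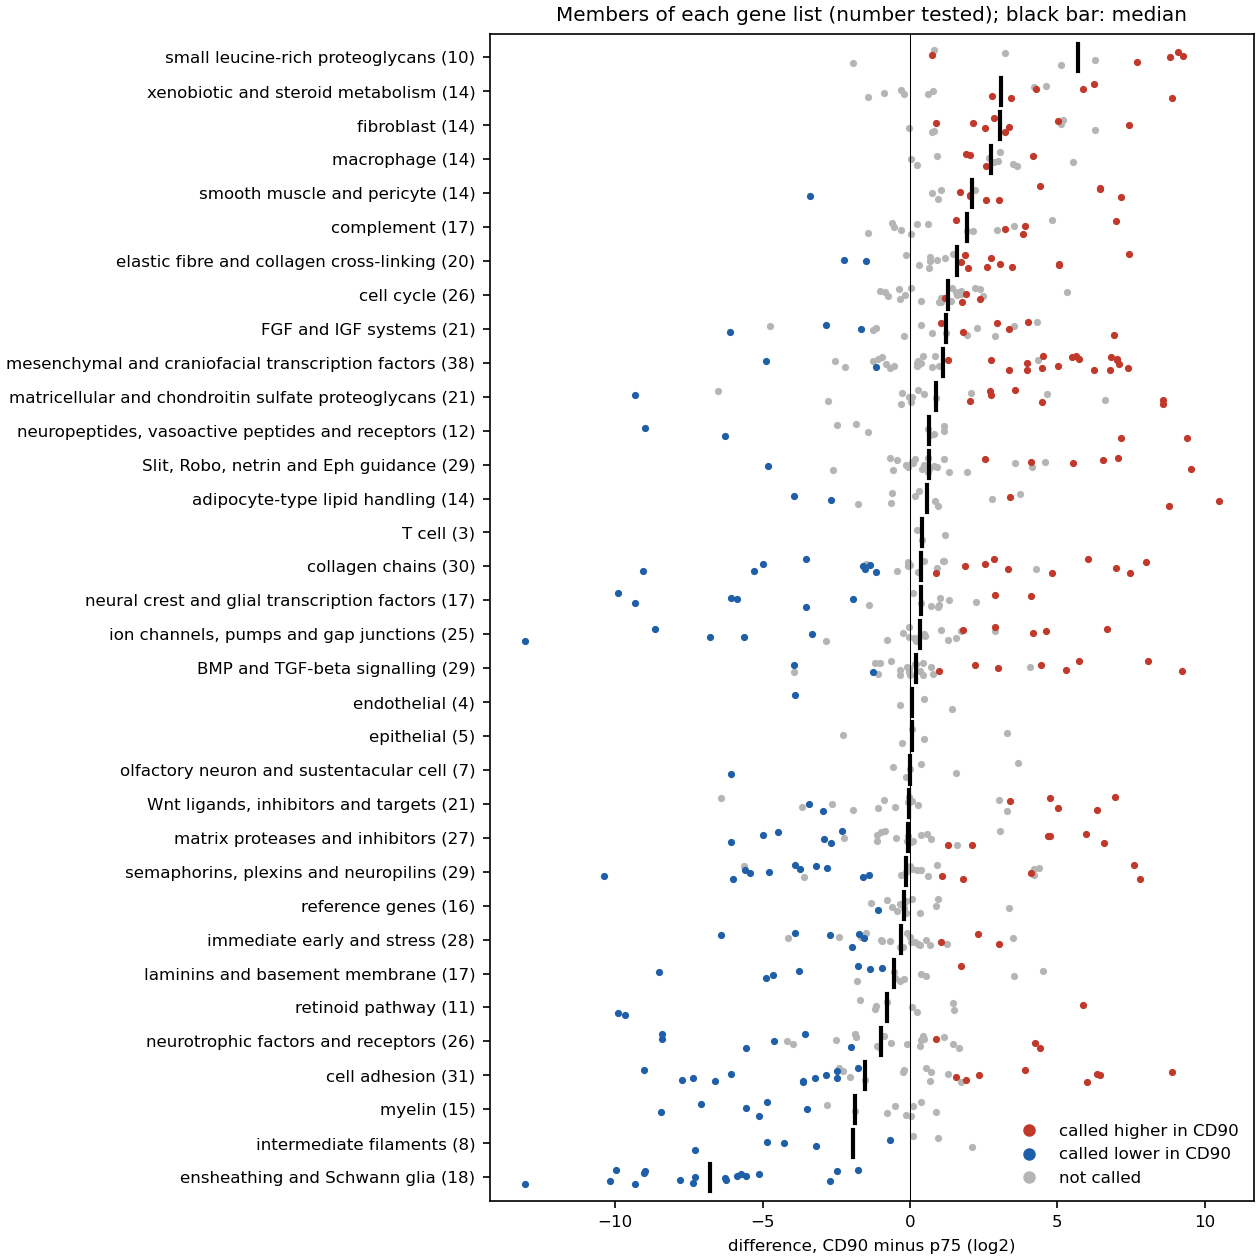
Each point is a tested member of a gene list, at its difference, CD90 minus p75 (x axis, log2), in red where called higher, blue where called lower and grey where not called; black bars are list medians and the numbers tested stand in brackets. The ensheathing and Schwann glia list, at the bottom, has its median at −6.80, and the small leucine-rich proteoglycans, at the top, at 5.70. Of their tested genes, 9 of 18 and 3 of 10 were well above background on all 8 arrays.

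Of the BMP and TGF-beta pathway, 29 genes were tested, of which 8 were higher, 2 lower and 19 not called (median 0.21). Of all genes 4.81% were higher and 4.93% lower, and the 2 lower genes are near that share. Only 4 of the 8 held when each array was left out in turn, and the count fell to 4 without CD90 replicate 1, 2 or 3 or p75 replicate 4 and to 5 without CD90 replicate 4 or p75 replicate 3. The lower count fell to 1 without CD90 replicate 1, 2 or 4 or p75 replicate 2 or 4. Those that held included Bmp4, the BMP antagonist gene Grem1 and Tgfb3. Grem1 stood at 2.87, 3.09, 2.37 and 2.87 in CD90 and −0.56, 0.20, −0.49 and 0.05 in p75 (3.00, SE 0.27, adjusted p = 0.00056), so that a ligand and an antagonist of the pathway were both higher in CD90. Tgfb3 differed by 2.22 (SE 0.21). Another antagonist gene, chordin (Chrd), was at least 29.3-fold higher. Fstl3, which binds activins, stood at 1.91, 2.73, 2.39 and 2.45 in p75 against −0.87, −1.57, −2.78 and −1.02 (−3.93, SE 0.45, adjusted p = 0.00173).

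Of 21 tested Wnt genes, 5 were higher and 2 lower in CD90 (median −0.04), and none of the 7 lost its call when any 1 array was left out. Secreted agonists and ligands were on the higher side, with Rspo1, Rspo3 (at least 17.6-fold), Wnt5a (at least 4.87-fold) and Wnt16 (4.74, SE 0.80, 2 p75 arrays well above background). The secreted frizzled-related proteins, which bind Wnt ligands, were opposed. Sfrp1 stood at 3.58, 3.21, 3.18 and 3.51 in p75 and −0.46, 0.57, 0.12 and −0.49 in CD90 (−3.43, SE 0.29, adjusted p = 0.000425). Sfrp2 stood at −1.12, −0.48, −1.47 and −1.81 in CD90 and −8.47, −5.59, −7.68 and −8.46 in p75 (6.33, SE 0.68, adjusted p = 0.00138), with 1 p75 array well above background. Groups did not overlap for either. The Wnt inhibitor gene Dkk2 was lower in CD90 (−2.96, SE 0.48).

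FGF and IGF system genes were higher in CD90 in 6 and lower in 3 of 21 tested (median 1.22), and higher in 5 and lower in 1 in the fit over all 16 arrays. The FGF ligands were divided between the populations. Fgf7, the keratinocyte growth factor that mesenchyme sends to epithelium, stood at 4.70, 5.06, 4.82 and 4.78 in CD90 and 1.80, 0.81, 0.85 and −0.06 in p75 (3.99, SE 0.38, adjusted p = 0.000759). Fgf5 stood at −0.40, −0.45, −1.21 and −1.23 in p75 and was well above background on 2 CD90 arrays (−6.09, SE 0.39, adjusted p = 0.000109). Of the IGF-binding proteins, Igfbp6 (6.92) and Igfbp4 (2.96) were higher and Igfbp5 (−1.66) was lower in CD90. Igfbp6 was well above background on only 1 p75 array. Igfbp5 was at a high level in both, at 4.48 ± 0.12 and 6.14 ± 0.11.

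Of 26 tested neurotrophic factors and receptors, 6 were lower and 3 higher in CD90 (median −0.97). The 6 include Ngfr, which encodes the sort protein of the p75 cells, and its direction is a check of the labels and no finding. The 3 higher ones were Ntf3, Hgf and Met, and none held in every fit that left out an array. Ntf3 and Hgf were well above background on 2 p75 arrays each, and a second Met probe differed by 1.51 and did not pass the threshold (adjusted p over probes = 0.502), against 4.41 for the probe used. The count was 0 without CD90 replicate 2, 3 or 4 or p75 replicate 1, and 1 without CD90 replicate 1 or p75 replicate 2 or 4. Gfra1, the receptor that binds GDNF, stood at −0.46, 1.53, 1.30 and 1.41 in p75 and −5.74, −4.83, −5.28 and −2.68 in CD90 (−5.57, SE 0.76, adjusted p = 0.00404). Gdnf itself was not called, and its groups overlapped, at −6.88, −4.02, −8.34 and −1.29 in CD90 and 0.57, −1.01, −0.91 and −2.47 in p75 (adjusted p = 0.148). Pleiotrophin (Ptn), a growth factor of nerve and glia, differed by −1.99 (SE 0.24).

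Of 29 tested semaphorins, which steer axons, and their plexin and neuropilin receptors, 11 were lower and 5 higher in CD90 (median −0.14). Without CD90 replicate 2 or 3 the higher count was 3. Secreted class 3 semaphorins were divided. Sema3d stood at 3.76, 3.90, 3.31 and 4.01 in CD90 and −2.89, −6.14, −4.55 and −1.79 in p75 (7.59, SE 0.88, adjusted p = 0.00193). Sema3a, not well above background in p75, was at least 126-fold higher, and CD90 replicate 1 (−4.58) lay far below the other CD90 arrays (1.10 to 1.55). Sema3b stood at 5.85, 5.78, 5.81 and 5.84 in p75 and 2.68, 1.49, 1.66 and 2.49 in CD90 (−3.74, SE 0.31, adjusted p = 0.000382), and Sema3c differed by −1.38 (SE 0.24). The membrane-bound semaphorins called lower in CD90 included Sema4f (at least 41.6-fold), Sema6a (−5.60, 1 CD90 array well above background), Sema6d (−4.79) and Sema4c (−2.81). Of the receptors, Plxnb3 and Plxnd1 (−3.20) were lower and Plxna1 (1.79) was higher.

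Of 29 tested genes of Slit, Robo, netrin and Eph signalling, 6 were higher, 1 lower and 22 not called (median 0.64), where 4.81% of all genes were higher and 4.93% lower, so that the single lower gene is near that share. Robo1, a Slit receptor, stood at 1.52, 1.32, 0.91 and 2.40 in CD90 and −6.20, −6.67, −2.32 and −6.93 in p75, where 2 arrays were well above background and replicate 3 was the highest (7.07, SE 1.03, adjusted p = 0.00527). The netrin receptor gene Unc5c was at least 42.7-fold higher and the ligand gene Efnb3 differed by 2.56 (SE 0.46). That gene was the Eph receptor Epha1, which stood at 0.76, 2.10, 0.11 and 1.55 in p75 and −2.03, −3.77, −4.11 and −4.86 in CD90 (−4.82, SE 0.69, adjusted p = 0.00483).

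**Figure D4:**
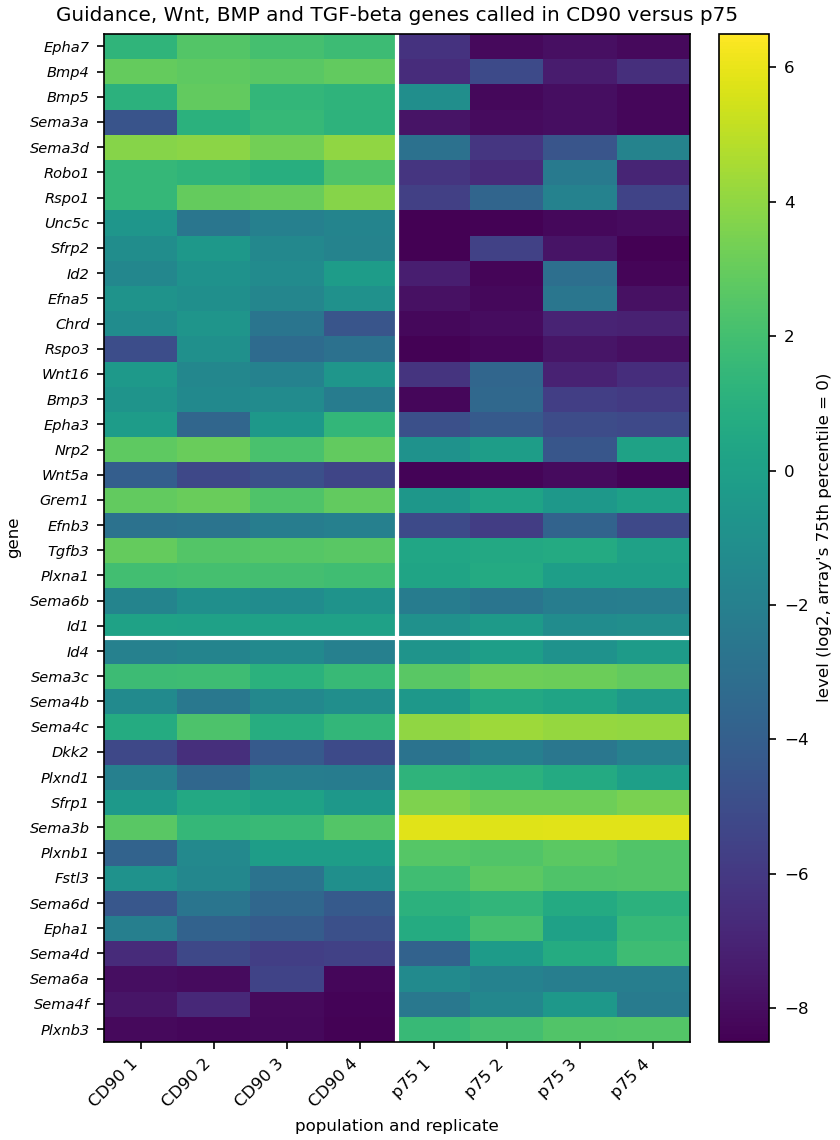
Rows are the 40 called genes of the semaphorin, Slit and Eph, Wnt, and BMP and TGF-beta lists, 24 higher and 16 lower in CD90, and columns are the 8 arrays; colour is the level (log2, 0 at the array's 75th percentile), to be read along a row. Sema3b is bright on all p75 arrays, Sema3d on all CD90 arrays, and CD90 replicate 1 stands below the other CD90 arrays for Sema3a.

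Adhesion genes were exchanged between the populations, with 8 higher and 12 lower in CD90 of 31 tested (median −1.54). The higher count was 5 without CD90 replicate 1, 2 or 4. The cadherins showed the exchange within a family. N-cadherin (Cdh2) stood at 3.97, 3.70, 3.41 and 3.74 in p75 and −0.20, −0.17, 0.30 and 0.38 in CD90 (−3.63, SE 0.23, adjusted p = 0.000108). Cdh11, the cadherin of mesenchyme, stood at −2.43, −1.02, −2.76 and −1.23 in CD90, was not well above background in p75, and was at least 39.3-fold higher (adjusted p = 0.000134). The protocadherin gene Pcdh19 stood at 2.35, 2.54, 1.09 and 0.73 in CD90 with 1 p75 array well above background (8.89, SE 0.67). L1cam, which glia and axons use to bind each other, stood at 4.05, 3.66, 3.69 and 4.06 in p75 and −5.83, −3.85, −0.50 and −3.85 in CD90, with CD90 replicate 3 the highest of its group (−7.37, SE 1.01, adjusted p = 0.00423). The laminin receptor gene Itga7 stood at 3.20, 3.80, 3.64 and 3.42 in p75 and at −4.34, −6.06, −6.50 and −0.01 in CD90 (−7.75, SE 1.35, adjusted p = 0.0123), and the difference was −9.15 without CD90 replicate 4, the highest CD90 array. The synaptic adhesion gene Cadm2 (−6.63, 1 CD90 array well above background) was lower, and the activated leukocyte adhesion gene Alcam (1.58) higher, in CD90.

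Of 25 tested channels, pumps and gap junction genes, 5 were higher and 5 lower (median 0.33), and the higher count was 3 when any 1 CD90 array was left out and in the fit over all 16 arrays. The water channel Aqp1 stood at 5.23, 5.46, 5.35 and 5.29 in CD90 and 1.66, −0.03, 1.11 and 1.94 in p75 (4.16, SE 0.42, adjusted p = 0.00105). The glial pump subunit Atp1b2 stood at 2.50, 2.19, 2.44 and 1.97 in p75 and −5.93, −6.48, −6.38 and −6.71 in CD90, where 1 array was well above background (−8.65, SE 0.24, adjusted p = 2.13e-06). Their groups did not overlap. The sodium channel gene Scn3a was at least 52.0-fold lower and the calcium-activated potassium channel gene Kcnn3 was lower by −3.33 (SE 0.22). Of 8 intermediate filament genes tested, 5 were lower and none higher in CD90 (median −1.93). Nestin (Nes), a filament of progenitors and immature glia, stood at 4.10, 4.47, 4.75 and 4.42 in p75 and 1.70, 1.42, 1.66 and 0.21 in CD90 (−3.19, SE 0.37, adjusted p = 0.00193), and synemin (Synm) differed by −4.27 (SE 0.41).

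Of 11 tested genes of the retinoid pathway, 1 was higher, 2 were lower and 8 were not called (median −0.79), and 7 more were too dim to be tested; 4.81% of all genes were higher and 4.93% lower. Aldh1a1, which makes retinoic acid, stood at 3.16, 2.51, 2.71 and 2.35 in p75 and was not well above background in CD90. Its paralogue Aldh1a3 stood at −2.25, −2.86, −0.98 and −1.53 in CD90, was not well above background in p75, and was at least 37.7-fold higher in CD90 (adjusted p = 0.000277). Rxrg was the other lower gene. Among peptides, Penk, the enkephalin precursor gene, stood at 2.53, 1.86, 2.84 and 2.07 in CD90 and −3.90, −8.21, −8.02 and −8.15 in p75, with p75 replicate 1 the only p75 array well above background (9.39, SE 0.99, adjusted p = 0.00123). Npy stood at 0.60, 1.52, 1.52 and 0.43 in p75 only. Ptgis, the prostacyclin synthase gene (7.16), was higher and the endothelin receptor gene Ednrb (−6.29) lower in CD90, each well above background on 2 arrays of the dimmer population, and these 4 were the called genes of 12 tested.

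Of 14 tested genes of xenobiotic and steroid metabolism, 6 were higher, none lower and 8 not called (median 3.1). Fmo1, a flavin monooxygenase gene, stood at 0.74, 0.61, 1.62 and 2.20 in CD90 only, and Fmo2 was at least 32-fold higher. Cyp1b1 (6.25), well above background on only 1 p75 array, and Aldh3a1 (4.27) were higher as well. Of 14 genes of fat cell lipid handling, 3 were higher and 2 lower (median 0.58); 5 were higher without CD90 replicate 2, and 1 was lower without CD90 replicate 1 or p75 replicate 1, 2 or 3, and in the fit over all 16 arrays. Fabp4, the fatty acid carrier of fat cells, macrophages and capillaries, stood at 2.09, 0.04, 1.54 and 0.04 in CD90, was not well above background in p75 and was at least 242-fold higher. Apod, a lipid carrier of nerve and glia, stood at 3.86, 3.24, 3.60 and 3.86 in p75 and 0.26, −1.02, −0.28 and −0.08 in CD90 (−3.92, SE 0.32, adjusted p = 0.000356). Complement genes were higher in 5 and lower in none of 17 (median 1.93), with 3 higher without CD90 replicate 2 and 2 without CD90 replicate 3. The protease gene C1s of the classical pathway stood at 2.45, 3.08, 3.30 and 3.25 in CD90 and −0.87, −1.74, −0.09 and −0.85 in p75 (3.91, SE 0.38, adjusted p = 0.00089).

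Matrix proteases and their inhibitors were higher in 6 and lower in 6 of 27 tested (median −0.08), and the lower count was 3 without p75 replicate 2 or 3. Tissue plasminogen activator (Plat) stood at 4.94, 4.90, 4.91 and 5.01 in p75 and 2.13, 2.13, 2.00 and 1.86 in CD90 (−2.91, SE 0.16, adjusted p = 6.59e-05). Its inhibitor gene Serpine2, the glia-derived nexin, stood at 5.52, 5.54, 5.55 and 5.55 against 3.42, 3.26, 3.4 and 2.84 (−2.31, SE 0.19, adjusted p = 0.000421), so that protease and inhibitor were both lower in CD90. The membrane-bound protease gene Mmp15 differed by −4.48 (SE 0.27). The protease gene Adamts12 (6.60) and the procollagen protease gene Adamts2 (4.76) were higher in CD90, and Adamts12 was well above background on only 1 p75 array.

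Immediate early and stress genes were lower in CD90 in 6 and higher in 3 of 28 tested (median −0.30). Atf3, which is induced by nerve injury and stress, stood at 1.43, 1.41, 1.06 and 0.87 in p75 and −3.95, −8.42, −4.08 and −4.40 in CD90 (−6.40, SE 0.99, adjusted p = 0.00705). Jun, the factor of Schwann cell repair, stood at 5.18, 5.0, 4.88 and 5.14 against 3.84, 3.53, 3.36 and 3.26 (−1.55, SE 0.20, adjusted p = 0.00312). Fos (−1.96), Jund (−1.74), Gadd45a (−2.73) and Nr4a3 (at least 13.8-fold) were the other lower ones, and the Krüppel-like genes Klf2 (3.02) and Klf4 (2.32) were higher. Of 26 cell cycle genes 4 were higher and none lower (median 1.28), with 2 higher in the fit over all 16 arrays. Mki67, a marker of cycling cells, stood at 3.29, 3.39, 3.47 and 3.14 in CD90 and 1.94, 1.93, 1.15 and 1.15 in p75 (1.78, SE 0.26, adjusted p = 0.00551). Of its 3 probes, 2 were called and the dimmest was not. Of 16 reference genes, 15 were not called and Rplp0 (−1.07) was lower, a call lost without CD90 replicate 1, 3 or 4 or p75 replicate 2, 3 or 4. That single call is near the 4.93% lower over all genes. Gapdh stood at 4.14 ± 0.19 in CD90 and 4.33 ± 0.14 in p75.

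Markers of other cell types were measured beside these groups. Macrophage genes were higher in CD90 in 4 of 14 tested, lower in none and not called in 10 (median 2.75), with 2 called without CD90 replicate 1, 2 or 3 or p75 replicate 4 and 8 in the fit over all 16 arrays. The mannose receptor gene Mrc1 stood at −0.87, −0.74, −1.33 and −0.49 in CD90 and −4.52, −5.37, −3.91 and −6.37 in p75 (4.18, SE 0.53, adjusted p = 0.00286). Aif1, Cd68 and Fcer1g were the others called, and Csf1r, the growth factor receptor of macrophages, was not (2.84, adjusted p = 0.0846). Aif1 lost its call in 7 and Cd68 in 6 of the fits that left out 1 array. A second Aif1 probe did not pass the threshold (adjusted p over probes = 0.0829). Summed over the list, the macrophage signal was 33.5 to 54.7 times the 75th percentile on the CD90 arrays and 7.89 to 16.3 times on the p75 arrays, and Cd163 and Cd53 were too dim to be tested. The part of macrophage transcripts in the differences of complement, Fabp4 and Spp1 was not tested. On the slide it shares with CD90, the TRKA-TGF group stood at 2.96 ± 0.15 for Mrc1 and 5.79 ± 0.03 for Fabp4.

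For the other types, defining genes were dim in both populations. Of the epithelial list 5 genes were tested and none called, with Epcam, Cdh1, Krt18 and Cldn4 too dim. Its summed signal was 81.9 to 93.5 in CD90 and 78.9 to 90.3 in p75, of which Tp63 alone stood at 6.44 ± 0.09 and 6.39 ± 0.08 (log2). That Tp63 probe also stood at 6.74 in TRKA and 6.56 in TRKA-TGF cells. A second Tp63 probe was far dimmer, at −4.52 in CD90 and −5.59 in p75. The summed epithelial signal thus rests on 1 of 2 probes that disagree, and whether the bright probe measures Tp63 transcript was not tested. Of the endothelial list, Pecam1, Tek, Emcn and Esam were too dim, and Cldn5 (−3.90), the only call among 4 tested, was lost without CD90 replicate 1, 3 or 4 or p75 replicate 1, 2 or 3. The summed endothelial signal was 0.192 to 0.851 in CD90 and 0.257 to 1.35 in p75. Of the olfactory neuron and sustentacular list, Cnga2, Cyp2g1, Ugt2a1 and Gpx6 were too dim, and Ncam2 was the only call of 7 tested, lost without any 1 CD90 array or p75 replicate 2 or 3. Its summed signal was 1.96 to 2.71 in CD90 and 1.15 to 1.99 in p75. T cell genes summed to 0.0481 to 0.102 and 0.0296 to 0.0547 in turn, with none of 3 tested called.

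Each population shared its slide with a TRKA group, which sets the levels of single genes beside a second population of the same scan. On the slide of the p75 arrays, Scn7a was not well above background in TRKA cells either, and Sox10 stood at −5.06 ± 2.17. On the slide of the CD90 arrays, Thy1 stood at −6.79 ± 0.60 in TRKA-TGF cells, with 1 of 4 arrays well above background, beside 3.44 ± 0.29 in CD90 cells. Pdgfra stood at −3.51 ± 2.99 there beside 3.38 ± 0.09, Cnn1 at −3.95 ± 0.34 beside 3.21 ± 0.35 and Col14a1, not well above background on any TRKA-TGF array, beside 1.24 in CD90. These 4 genes were chosen after their values were seen. Ngfr, in contrast, was well above background on all 4 TRKA-TGF arrays, at −0.37 ± 0.73, and on 2 CD90 arrays. For other calls the levels divided by slide, as a count added after the values were seen showed. All 8 arrays of the CD90 slide lay above all 8 of the p75 slide for 42 of the 916 genes called higher (4.59%) and below them for 57 of the 939 called lower (6.07%). Over all 19048 genes tested the shares were 0.341% and 0.588%, though a call already selects genes whose CD90 and p75 arrays differ. Among the genes named above, the calls divided by slide were Rspo1, Foxc1, Hgf, Klf4 and Aldh3a1 on the higher side and Fos, Plod1 and Rplp0 on the lower. Rspo1 stood at 1.72 ± 0.69 in TRKA-TGF and 2.83 ± 0.97 in CD90, and at −4.13 ± 1.78 in p75 and −5.18 ± 0.68 in TRKA. The part of the slide in these differences cannot be told apart from that of the population.

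**Figure D5:**
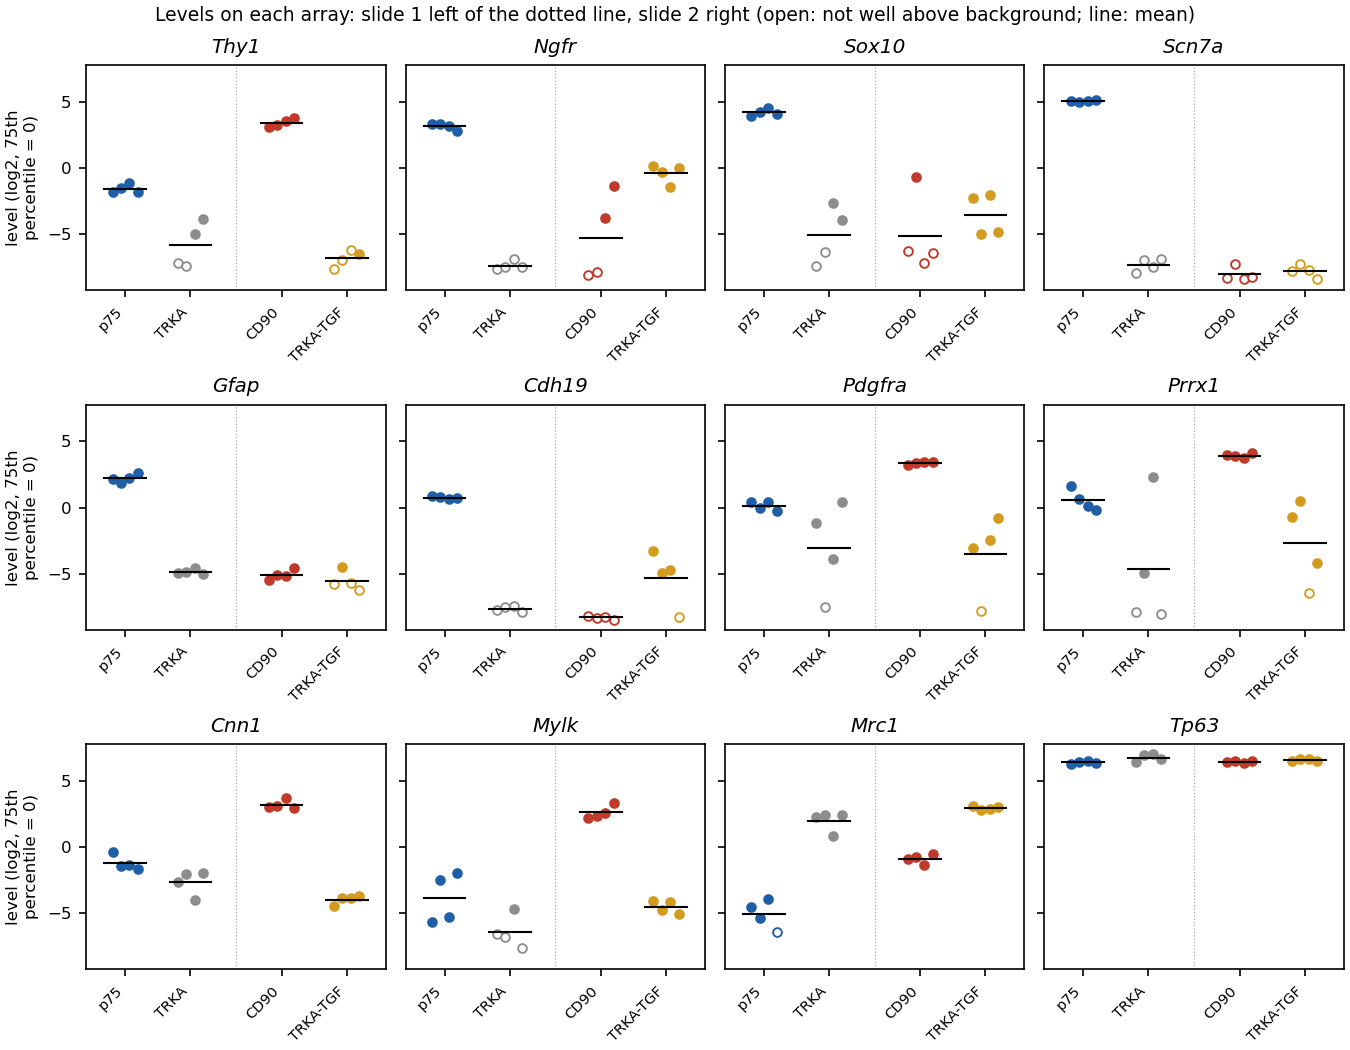
Levels of 12 genes on all 16 arrays (y axis, log2, 0 at the array's 75th percentile), with the 2 populations of slide 1 left of the dotted line and those of slide 2 right of it; open points were not well above background and lines are means of 4 arrays. Thy1, Pdgfra, Prrx1, Cnn1 and Mylk are highest in CD90, Scn7a, Sox10, Gfap and Cdh19 in p75, and Tp63, by the brighter of its 2 probes, is near 6.4 in both.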

How the data were processed

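The deposited scanner files hold spot intensity values that the authors obtained with 1-colour Agilent Feature Extraction, version 10.7.3.1 per the file headers and 10.5 per the submitters' processing notes, background-subtracted and detrended but not normalized between arrays; probe positions are on rn4. Per the labels' protocols, mRNA was amplified by a global PCR, which can change relative levels between transcripts and adds spread for rare ones. Depth does not apply to arrays, and 4 arrays per group limit the precision.

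Spots flagged as outliers were dropped, the rest averaged per probe on the log2 scale, and each array's 75th percentile over non-control probes was subtracted. Probes had to be well above background on 4 or more of these 8 arrays to be kept. The kept probe with the highest mean stood for its gene, giving 19048 genes, 13192 with a current symbol. Symbols came from RefSeq accessions for 18754 of 30367 probes, from symbols or synonyms for 2570 and 409, and otherwise from the file. The 8 arrays were fitted with limma 3.58.1 in R 4.3.3 (lmFit and eBayes, no covariate), with Benjamini-Hochberg adjustment over all genes and a threshold of 0.05, and the script was tested on simulated data. The labels call the replicates biological but do not say whether cultures or animals were separate, so p-values measure only the spread between these samples.

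Named genes are Thy1 and Ngfr, the 10 largest called differences per direction (over all genes, and over genes well above background on all 8 arrays), and members of 35 lists with 745 genes. The genes taken by size had a current symbol, separate groups and all 4 arrays of the brighter group well above background. The members and lists were chosen with earlier results of these data known. Alternatives were the 16-array fit, other filters, background corrections, scalings, probe rules, an intensity trend, kept flagged spots, a replicate block, leaving out each array, and the authors' deposited table of log2 values. Set against the scanner files, that table matched quantile-normalized log2 signals centred on each probe's median; the sources used here do not state this. A few members of the lists are counted but not reported by name here.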

Additional observations from a re-analysis of the deposited data

Results flagged for a closer look

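For each named gene, the 4 arrays of each population were searched for 1 array far from the other 3 (a gap that takes up most of the group's whole range, by Dixon's test). Chance alone marks about 1 in 20 groups. Of 372 groups, 36 (9.68%) were marked, beside 7.11% over all tested genes. The value beside each gene is that gap as a share of the range.

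Among the CD90 arrays, replicate 1 stood above the others for Aif1 (0.855), Csf1r (0.892) and Fabp7 (0.872) and below them for Alcam (0.917), Igfbp6 (0.833) and Sema3a (0.927). Replicate 2 stood above the others for Cldn5 (0.861), Scn7a (0.925) and Sox10 (0.86) and below them for Atf3 (0.9) and Plxnd1 (0.874). Replicate 3 stood above the others for Cnn1 (0.883), Sema6a (0.89) and Synm (0.974) and below them for Nr4a3 (0.908). Replicate 4 stood above the others for Sox2 (0.983) and Sox8 (0.953) and below them for Col6a2 (0.851). For Scn7a and Nr4a3 no CD90 array was well above background, so the gap lies among signals at the detection limit.

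Among the p75 arrays, replicate 1 stood above the others for Epha7 (0.849), Igfbp6 (0.938), Penk (0.958) and Tbx18 (0.935) and below them for Gfra1 (0.886) and Tagln (0.834). Replicate 2 stood above the others for Aldh1a3 (0.924) and below them for Sox8 (0.861). Replicate 3 stood above the others for Cyp1b1 (0.943), Etv1 (0.872), Fabp4 (0.977), Robo1 (0.841), Twist1 (0.987) and Wnt5a (0.831). Replicate 4 stood above the others for Cadm2 (0.954), Eya1 (0.866) and Fmo2 (0.879) and below them for Fmo1 (0.859). For Aldh1a3, Fabp4, Fmo1, Fmo2 and Wnt5a no p75 array was well above background, so the gap lies among signals at the detection limit.

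Several of these single arrays were the only ones of their population with a measurable transcript of the other. Fabp7 stood at −2.14 on CD90 replicate 1 and between −8.38 and −7.58 on the other CD90 arrays. On p75 replicate 1, Penk stood at −3.90 and Tbx18 at −2.81, against −8.21 to −8.02 and −8.28 to −7.92 on the others. For all but Sox2, which had overlapping groups, and Csf1r, which was not called, the marked genes were called in the fit and their populations did not overlap.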

How the results depend on the processing

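With the replicate number as a block, 890 genes were called, 413 higher and 477 lower. Same-numbered CD90 and p75 arrays correlated at −0.0168 to 0.0133 in their deviations from the group means, and the other pairs at −0.0191 to 0.02. No pairing by number was seen in these values, which cannot show whether same-numbered samples shared a culture or animal. Leaving out 1 array gave 1316 to 1461 called genes, with 610 (without CD90 replicate 1) to 740 higher and 624 (without p75 replicate 3) to 830 lower. Every other setting gave between 1436 called genes (detection on all 8 arrays) and 2373 (intensity trend). Of 179 named genes that were called, 131 kept the call in every setting run and 48 lost it in at least 1, mostly in the 16-array fit or under the block, and none of these 179 changed sign. Over all 1855 called genes, 5 changed sign with the mean of all kept probes of a gene, and none in any other setting run. Leaving out some 1 array moved the fold of 59 of the 179 by over 1.5 times. The largest moves among genes well above background on at least 1 array of each population were those of Sox10 (−10.81 without CD90 replicate 2), Fabp7 (−11.64 without CD90 replicate 1), Itga7 (−9.15) and Ngfr (−9.70) without CD90 replicate 4, and Tbx18 (8.42) without p75 replicate 1. For Sox10, Fabp7 and Tbx18 the array left out was the only one of the dimmer population well above background. Their values without it set the brighter population against signals at the detection limit alone. Among the named genes that were not called, Postn differed by 0.0177 with quantile normalization, 0.0217 with the percentile over detected probes, 0.0152 with the authors' values and −0.0962 to 0.0161 when 1 array was left out, and Tp63 by −0.0343 with quantile normalization and −0.0357 with the authors' values, against −0.04 and 0.05 in the main setting; the cause was not tested. Genes at the detection limit in 1 population have only a bound on their fold, and slide and population cannot be separated.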
